A study of Mus musculus with 8 samples.

Results

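The 9 genes described here encode the integrins and adhesion molecules with which leucocytes leave the blood: the β2 integrin chain Itgb2 with its α partners Itgal and Itgam, the α4 and β7 chains Itga4 and Itgb7, the integrin activator Fermt3, the selectin ligand Selplg, and the vessel-wall ligands Icam1 and Vcam1. They were chosen by name and make up 9 of the 18820 genes measured on the arrays. Each gene was taken from probe sets annotated with exactly 1 gene symbol, and from the probe set with the highest mean where it had several. The arrays were run to find which adipose genes differ when SUCNR1, the receptor for the citric acid cycle intermediate succinate, is absent. Epididymal white adipose tissue was profiled in 4 Sucnr1-/- mice and 4 WT mice, with 1 array per mouse. All 8 were male mice on a C57BL/6 background, entered the diet at 8 to 10 weeks of age, ate a low-fat diet (LFD) for 16 weeks and were 24 to 26 weeks old at the end. In the Sucnr1-/- mice a lacZ and neomycin cassette had taken the place of a large part of the coding exon in every cell of the body, so that the loss was not limited to adipocytes or to macrophages, and the WT mice came from the same intercross of heterozygotes.

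Leucocytes first roll on the endothelium through selectins that bind sugar-bearing ligands such as PSGL-1, the product of Selplg. Chemokine signals then act through talin and kindlin-3 on the cytoplasmic tails of the integrins, which open and bind ICAM-1 and VCAM-1 on the vessel wall. In adipose tissue the same integrins are carried by resident macrophages, lymphocytes and the few granulocytes, so that their mRNA in whole tissue also follows how many leucocytes it holds. Fewer cells of a type and less RNA per cell cannot be told apart in bulk tissue.

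The upstream regions of 5 of the 9 genes could be matched in the RefSeq promoter table (GRCm38.p6), and 3 are shown, 1 for each of 3 motifs searched that belong to factors known from leucocytes or from inflammation. Each line gives the 250 bases before the transcription start, with the motif in capitals. Itgam (chr7:128062390-128062639, plus strand) holds GAGGAA, the core of PU.1-type ETS sites, 84 bases before the start and its reverse complement TTCCTC 15 bases before it. Fermt3 (chr19:7019470-7019719, minus strand) holds the RUNX core TGTGGT 61 and 24 bases before the start. Icam1 (chr9:21015690-21015939, plus strand) holds the NF-κB letters GGAAATTCC 153 bases before the start.

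Itgam: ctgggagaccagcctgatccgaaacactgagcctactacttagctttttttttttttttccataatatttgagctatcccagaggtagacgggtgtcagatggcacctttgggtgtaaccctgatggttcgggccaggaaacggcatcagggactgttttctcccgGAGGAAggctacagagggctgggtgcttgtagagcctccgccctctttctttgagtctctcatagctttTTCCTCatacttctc

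Fermt3: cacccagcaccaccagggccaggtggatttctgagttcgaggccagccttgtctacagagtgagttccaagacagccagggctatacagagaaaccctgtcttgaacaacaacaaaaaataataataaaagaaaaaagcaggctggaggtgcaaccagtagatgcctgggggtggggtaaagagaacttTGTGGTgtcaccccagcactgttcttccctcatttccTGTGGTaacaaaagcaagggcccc

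Icam1: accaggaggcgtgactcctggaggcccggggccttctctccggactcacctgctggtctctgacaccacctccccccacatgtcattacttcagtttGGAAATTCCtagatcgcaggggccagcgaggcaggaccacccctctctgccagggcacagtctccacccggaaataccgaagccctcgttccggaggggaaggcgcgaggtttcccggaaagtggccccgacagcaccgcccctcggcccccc

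Searched on both strands, GAGGAA occurred in 23.3% of 32851 upstream windows of this length and TGTGGT in 14.0%. The NF-κB letters GGAAATTCC (reverse complement GGAATTTCC) occurred in 94 windows, or 0.286%. The ETS and RUNX letters are thus common in any such window. The NF-κB letters form a longer string, which occurs less often through its length alone, and other spellings of that site were not searched. The shares therefore do not compare the 3 factors. Among the other matched genes, Itga4 held the reverse complement ACCACA 60 bases before its start, and Itgb7 held none of the 3 motifs. A match of letters is a description of the sequence and not a measured binding site.

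The targeted gene followed the labels. Sucnr1 was measured at log2 values of 6.02, 6.05, 5.41 and 7.11 in the Sucnr1-/- mice (replicates 1 to 4, the order used throughout), against 8.68, 8.97, 9.38 and 9.78 in the WT mice. Its difference was -3.05 (SE 0.36), where all differences are Sucnr1-/- minus WT on the log2 scale. Array medians lay between 6.28 and 6.36, the correlations between arrays over probe sets were 0.981 to 0.993, and no pair of arrays was identical. Of the 18820 genes none passed an adjusted p of 0.05 in limma. The smallest adjusted p was 0.321, that of Sucnr1 itself, so this threshold missed even the targeted gene. An unadjusted limma p below 0.05 was found for 1284 genes (6.82%), of which 632 (3.36%) were lower and 652 (3.46%) higher in Sucnr1-/- mice.

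Mouse 1 of each group was the highest of its group in many leucocyte genes, but not in all. WT mouse 3 was above WT mouse 1 in Itga4, Selplg and the macrophage marker Adgre1. Sucnr1-/- mouse 4 was above Sucnr1-/- mouse 1 in Adgre1. Sucnr1-/- mouse 1 had the highest level of all 9 genes among the Sucnr1-/- mice and a high level of Csf3r, the G-CSF receptor of neutrophils: 9.04, 6.23, 6.73 and 6.06 in Sucnr1-/- mice, against 7.98, 7.16, 6.84 and 7.05 in WT mice. WT mouse 1 had the highest B cell marker level of all 8 mice and the lowest weight (0.454) when limma weighted the arrays by their fit. The differences of the 9 genes are given with and without them.

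All 9 genes had a lower mean in Sucnr1-/- than in WT adipose tissue, by 0.21 to 0.64 log2 units. Over all genes 46.8% had a lower mean. The median difference of the 9 was -0.42, and -0.43 for the 7 that leucocytes carry (all but Icam1 and Vcam1), compared with 0.01 over all genes. Itgb2, Itgam and Fermt3 had an unadjusted limma p below 0.05, 3 of 9 where 3.36% of all genes did so in that direction. For Itgb2 and Fermt3 every Sucnr1-/- mouse was below every WT mouse, 2 of 9 where the share over all genes was 1.87%, and for none of the 9 was every Sucnr1-/- mouse above every WT mouse (2.37% of all genes). After adjustment over all genes (0.0% called) none of the 9 passed.

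**Figure D1:**
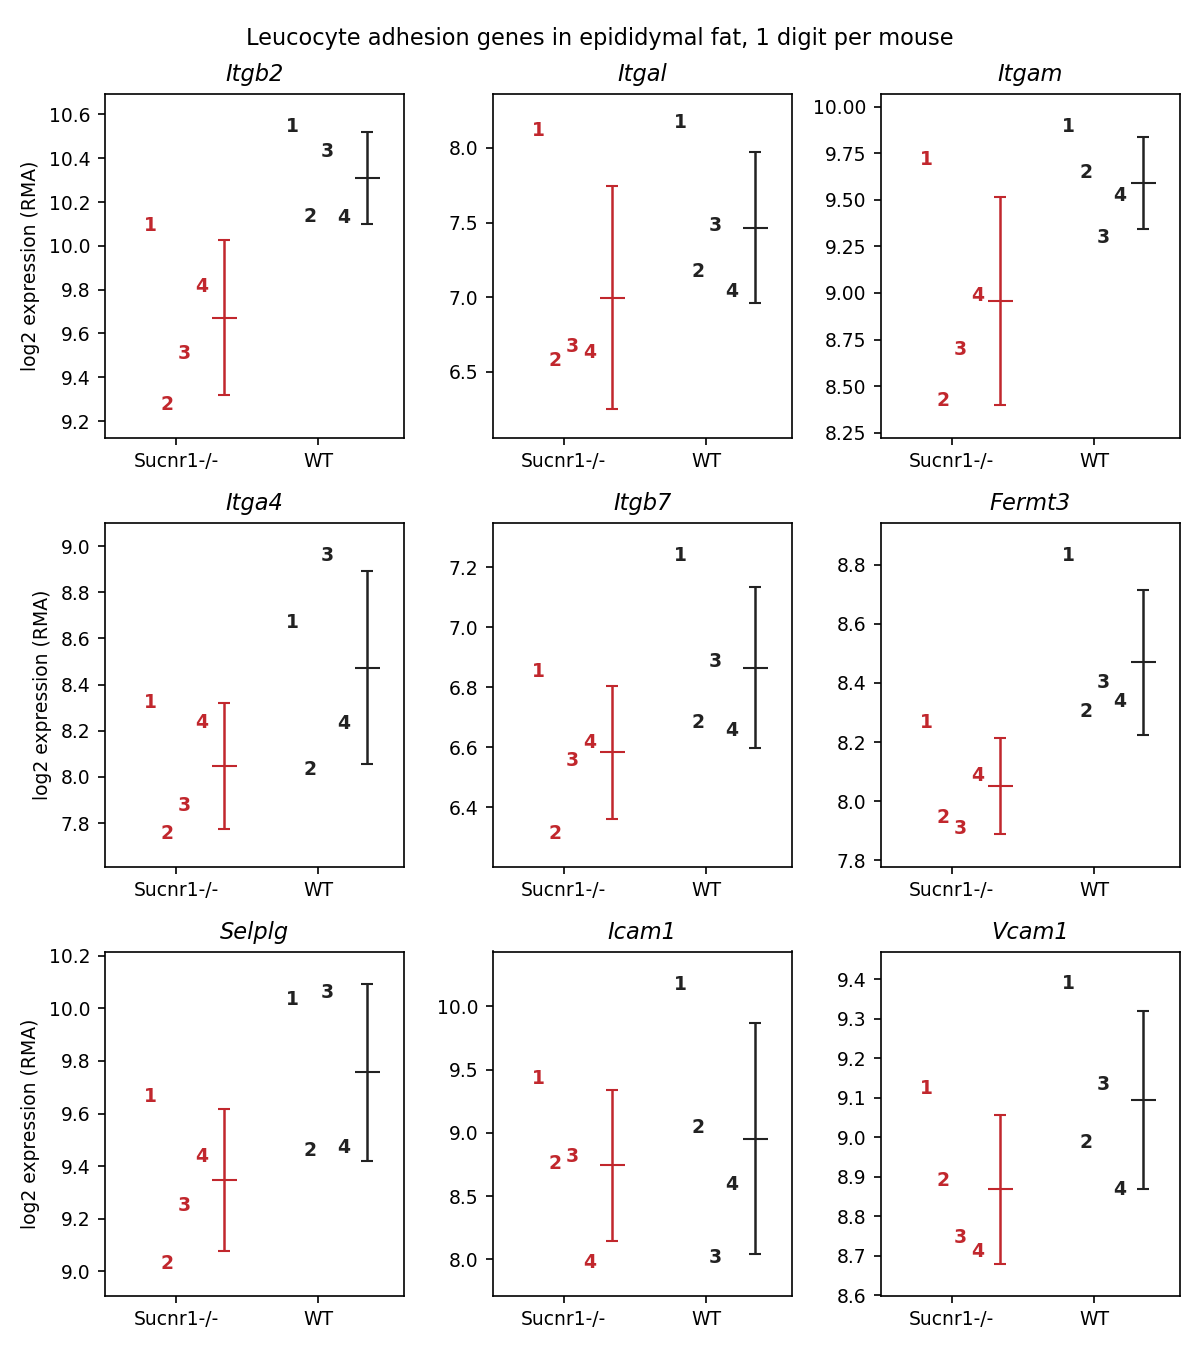
Deposited log2 (RMA) values of the 9 adhesion genes, with 1 digit (the replicate number) per mouse, red for Sucnr1-/- to the left of black for WT, and the mean with its SD beside each group (n = 4 each). The groups separate for Itgb2 and Fermt3 only, and Sucnr1-/- mouse 1 lies within the WT range for each of the other genes.

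The β2 chain, through which leucocytes arrest firmly and which is defective in human leucocyte adhesion deficiency, separated the groups. Itgb2 was measured at 10.09, 9.28, 9.51 and 9.81 in Sucnr1-/- mice, against 10.54, 10.13, 10.43 and 10.13 in WT mice. The highest Sucnr1-/- mouse lay 0.04 below the lowest WT mouse, so the separation was complete but narrow. The means were 9.67 ± 0.36 and 10.31 ± 0.21 (SD, n = 4 each), a difference of -0.64 (SE 0.18, 95% confidence interval -1.04 to -0.23), or a level of 0.643 times that of WT. Permuting the mice exactly (two-sided) gave p = 0.0286, below which 4 against 4 mice cannot go, and limma gave an unadjusted p of 0.00651 and an adjusted p of 0.712. Without Sucnr1-/- mouse 1 the difference was -0.78, without WT mouse 1 it was -0.56, and without both it was -0.70.

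Itgam, the CD11b chain of the complement receptor Mac-1 on myeloid cells, had a difference of the same size with a wider spread. Its values were 9.72, 8.42, 8.70 and 8.99 in Sucnr1-/- mice, against 9.89, 9.64, 9.30 and 9.52 in WT mice. Sucnr1-/- mouse 1 stood among the WT mice, and the other 3 Sucnr1-/- mice were below all WT mice. The means were 8.96 ± 0.56 and 9.59 ± 0.25, a difference of -0.63 (SE 0.26), for which the exact permutation p was 0.114 and limma's adjusted p was 0.712 (unadjusted 0.0380). It was -0.89 without Sucnr1-/- mouse 1, -0.53 without WT mouse 1 and -0.79 without both. The unadjusted p was below 0.05 without Sucnr1-/- mouse 1 or both mice and not without WT mouse 1 alone. It was also above 0.05 when WT mouse 2 or 4 or any other Sucnr1-/- mouse was left out.

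Itgal, the CD11a chain of LFA-1 that lymphocytes and other leucocytes use to bind ICAM-1, depended most on Sucnr1-/- mouse 1. The levels were 8.12, 6.57, 6.67 and 6.63 in Sucnr1-/- mice, against 8.17, 7.17, 7.48 and 7.04 in WT mice. In both groups mouse 1 was well above the other 3, and the remaining Sucnr1-/- mice lay together below the lowest WT mouse. The means of 7.00 ± 0.75 in Sucnr1-/- mice and 7.47 ± 0.51 in WT mice differed by -0.47 (SE 0.38, exact permutation p = 0.371). Without Sucnr1-/- mouse 1 the difference was -0.84, with an unadjusted limma p of 0.00971 and an adjusted p of 0.547. Leaving out WT mouse 1 instead gave -0.23, and leaving out both gave -0.61.

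The α4 and β7 chains pair with each other to bind MAdCAM-1 of gut vessels, and α4 pairs with β1 to bind VCAM-1. Itga4 was measured at 8.32, 7.76, 7.87 and 8.24 in Sucnr1-/- mice, against 8.67, 8.03, 8.96 and 8.23 in WT mice. The groups overlapped, because Sucnr1-/- mice 1 and 4 were above WT mice 2 and 4. The difference of -0.43 (SE 0.21) had an exact permutation p of 0.171. It was -0.52 without Sucnr1-/- mouse 1, -0.36 without WT mouse 1 and -0.45 without both, and it was smallest, at -0.26, without WT mouse 3. A further probe set, annotated to both Itga4 and the neighbouring Cerkl and therefore not used, had 5.18, 5.56, 5.42 and 5.58 in Sucnr1-/- mice, against 5.24, 5.40, 5.58 and 5.51 in WT mice. Its difference was 0.00, so it did not show the lower mean. Its values lay below the array medians (6.28 to 6.36), where a difference can be hard to measure.

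Itgb7 had 6.85, 6.31, 6.56 and 6.61 in Sucnr1-/- mice, against 7.24, 6.68, 6.89 and 6.66 in WT mice. Only Sucnr1-/- mouse 1 was above the lowest WT mouse. The difference was -0.28 (SE 0.15, exact permutation p = 0.143). It was -0.37 without Sucnr1-/- mouse 1, -0.16 without WT mouse 1 and -0.25 without both.

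Fermt3 encodes kindlin-3, which blood cells need to switch their integrins on and which is lost in the human type III adhesion deficiency. Its values were 8.27, 7.94, 7.91 and 8.09 in Sucnr1-/- mice, against 8.83, 8.30, 8.40 and 8.34 in WT mice. The groups did not overlap, again by a narrow gap of 0.04, and mouse 1 was the highest of each group. The means were 8.05 ± 0.16 and 8.47 ± 0.24 (SD, n = 4 each), a difference of -0.42 (SE 0.13, 95% confidence interval -0.72 to -0.12). The exact permutation p was 0.0286 and limma's adjusted p was 0.712 (unadjusted 0.0120). The difference was -0.49 without Sucnr1-/- mouse 1, -0.30 without WT mouse 1 and -0.37 without both, with an unadjusted p below 0.05 each time.

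Selplg, whose product PSGL-1 carries rolling leucocytes on selectins, had 9.67, 9.03, 9.25 and 9.44 in Sucnr1-/- mice, against 10.03, 9.46, 10.06 and 9.47 in WT mice. Here 3 of 4 Sucnr1-/- mice were below the lowest WT mouse, and mouse 1 was above it. The difference was -0.41 (SE 0.19, exact permutation p = 0.114), and it was -0.52 without Sucnr1-/- mouse 1, -0.32 without WT mouse 1 and -0.42 without both.

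The vessel-wall ligands differed least. Icam1, the ligand of LFA-1 and Mac-1 that inflamed endothelium and many other cells induce, was measured at 9.43, 8.76, 8.81 and 7.98 in Sucnr1-/- mice, against 10.17, 9.05, 8.01 and 8.59 in WT mice. The values were intermixed, with the lowest and the highest WT mouse 2.16 log2 units apart. The means were 8.74 ± 0.60 and 8.96 ± 0.91, and the difference of -0.21 (SE 0.46, exact permutation p = 0.743) had a 95% confidence interval from -1.25 to 0.83. It changed sign without WT mouse 1 (0.19) and without Sucnr1-/- mouse 4 (0.04), and it was -0.44 without Sucnr1-/- mouse 1, -0.53 without WT mouse 3, -0.33 without WT mouse 4 and -0.0352 without mouse 1 of both groups.

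Vcam1, the ligand of α4β1, was less variable, with 9.12, 8.89, 8.75 and 8.71 in Sucnr1-/- mice, against 9.39, 8.99, 9.13 and 8.87 in WT mice. Mouse 1 was the highest of each group, and the groups overlapped. The difference was -0.23 (SE 0.13, exact permutation p = 0.200). It was -0.31 without Sucnr1-/- mouse 1, -0.13 without WT mouse 1 and -0.21 without both.

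Without Sucnr1-/- mouse 1, 7 of the 9 genes had an unadjusted limma p below 0.05 and were lower (all but Itga4 and Icam1), where 4.7% of all genes did. Without WT mouse 1 it was Itgb2 and Fermt3, 2 of 9 against 2.75% of all genes. Without both mice it was Itgb2, Itgal, Itgam and Fermt3, 4 of 9 against 4.14%. No adjusted p of the 9 passed 0.05 in any of these fits. Sucnr1-/- mouse 1 was the highest Sucnr1-/- mouse for all 9 genes, so leaving it out had to make each difference more negative. The shares over all genes rest on no such choice of mouse, so the counts without this mouse are descriptions only.

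The other chains and ligands were then examined as 6 lists drawn up around the pathway. Of 21 other integrin chains, 15 had a lower and 6 a higher mean in Sucnr1-/- mice, with a median of -0.10, and 3 had an unadjusted limma p below 0.05, all lower. Over all genes 3.36% were lower at that p and 3.46% higher. This is also the background for the lists that follow, where 1 gene of about 20 is near that share and 2 are above it. Among the 3 chains was Itgav, the αv chain of vitronectin receptors, at 9.49, 9.38, 9.52 and 9.42 in Sucnr1-/- mice, against 9.62, 9.66, 9.53 and 9.66 in WT mice. The groups did not overlap, and the difference was -0.17 (SE 0.06, adjusted p = 0.712). Itgax, the CD11c chain that also pairs with β2 and marks dendritic cells and lipid-laden macrophages, differed by -0.48 (SE 0.20), and Itga7, a laminin receptor chain of muscle, by -0.38 (SE 0.16). Itgae, the αE partner of β7 that binds E-cadherin, ran the other way at 0.24 (SE 0.11) without reaching an unadjusted p of 0.05. Itgb1, the β1 chain that most cells carry, was close between the groups, at 11.16, 11.09, 11.16 and 11.34 in Sucnr1-/- mice and 11.28, 11.21, 11.30 and 11.37 in WT mice.

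Among 20 measured genes for selectins, their ligands and the enzymes that glycosylate them, 16 were lower and 4 higher on average (median -0.11), and 1 had an unadjusted limma p below 0.05 in each direction. Fut4, a fucosyltransferase of the selectin ligands, differed by -0.30 (SE 0.11), and the sialyltransferase St3gal4, which acts on the same glycans, by 0.28 (SE 0.10). Selp, the P-selectin of endothelium and platelets, had 9.73, 7.58, 8.05 and 8.05 in Sucnr1-/- mice, against 9.34, 9.34, 8.22 and 8.73 in WT mice. Sucnr1-/- mouse 1 was the highest of all 8 mice, and the difference of -0.56 had an SE of 0.45. Cd44, the hyaluronan receptor that also binds E-selectin, had 9.14, 7.93, 8.14 and 7.89 in Sucnr1-/- mice, against 9.67, 8.90, 8.54 and 8.62 in WT mice, a difference of -0.66 (SE 0.33). Sele, the E-selectin of activated endothelium, differed by -0.13 (SE 0.24).

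Of 19 other endothelial and junctional ligands, 13 were lower and 6 higher on average (median -0.08). Nectin2 (-0.26, SE 0.11), a nectin of cell junctions, had an unadjusted limma p below 0.05. Icam2, the ICAM of resting endothelium, differed by -0.02 (SE 0.16), and Madcam1, the ligand of α4β7, by -0.15 (SE 0.12).

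The 22 genes of inside-out activation, which carry the signal from Rap1 to the integrin tail, were close to the centre of all genes: 13 were lower and 9 higher (median -0.04), and none had an unadjusted limma p below 0.05. Tln1, the talin that acts beside kindlin-3, differed by -0.08 (SE 0.07). Outside-in signalling, the relay from the bound integrin into the leucocyte, had 15 lower and 5 higher of 20 measured genes (median -0.21, or -0.13 without WT mouse 1), and 2 lower with an unadjusted limma p below 0.05. These were Vav3, a guanine nucleotide exchange factor, with a difference of -0.27 (SE 0.09), and Fcer1g, the Fc receptor γ chain that also signals from integrins, with -0.35 (SE 0.14). Vav3 was measured at 8.14, 7.93, 8.23 and 8.14 in Sucnr1-/- mice, against 8.56, 8.32, 8.33 and 8.30 in WT mice, without overlap.

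All 19 measured NF-κB response genes had a lower mean in Sucnr1-/- mice (median -0.31), and 1 of them, Cd40, the costimulatory receptor of B cells and macrophages, had an unadjusted limma p below 0.05. Its values were 7.01, 6.57, 6.90 and 6.89 in Sucnr1-/- mice, against 7.77, 7.08, 7.05 and 7.09 in WT mice, a difference of -0.41 (SE 0.17). The groups did not overlap, and WT mouse 1 stood above the other WT mice. The median of this list depended on single mice and was -0.05 without WT mouse 1, -0.11 without Sucnr1-/- mouse 4 and -0.47 without WT mouse 3. No gene of the 6 lists passed the adjusted threshold.

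**Figure D2:**
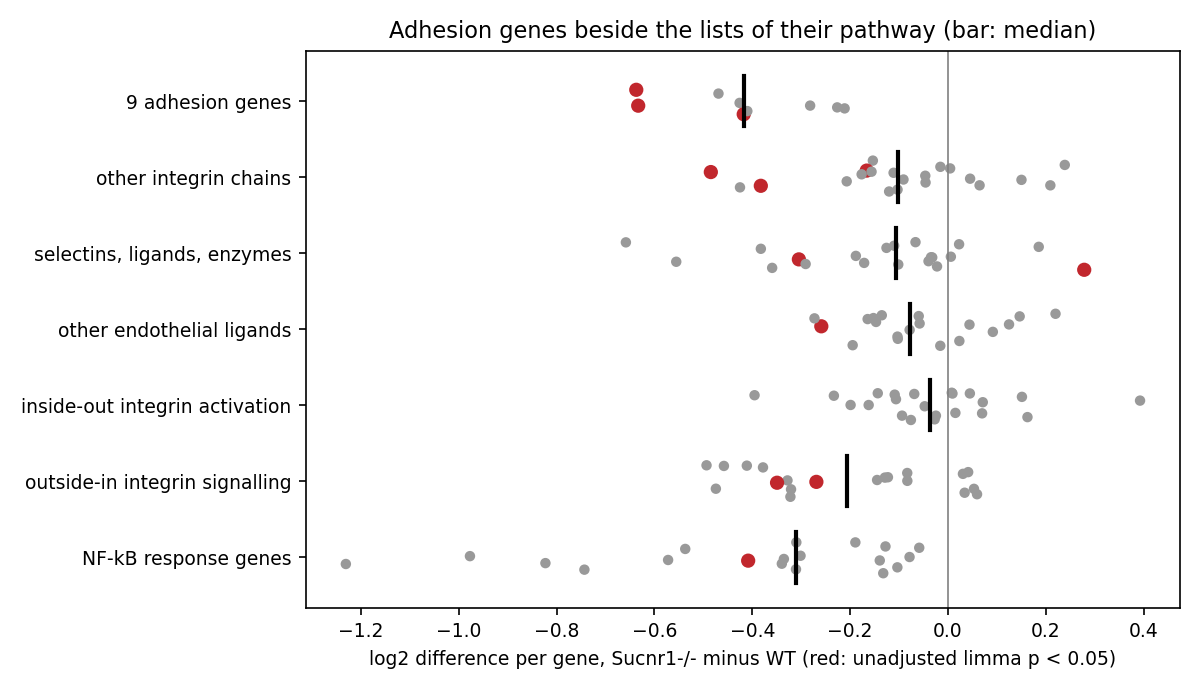
Log2 differences (Sucnr1-/- minus WT) of the genes in the 6 pathway lists and of the 9 adhesion genes, 1 point per gene (red where the unadjusted limma p was below 0.05), with the median of each list as a bar. The 9 adhesion genes (median -0.42) and the NF-κB response genes (-0.31) lie left of 0, and the genes of inside-out activation (-0.04) spread on both sides of it.

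Leucocyte markers outside the set were lower too. All 16 pan-leucocyte markers, such as Ptprc (CD45), had a lower mean in Sucnr1-/- mice (median -0.43), 6 of them with an unadjusted limma p below 0.05 (3.36% of all genes). Their mean level per mouse, set against the WT mean, was -0.08, -0.62, -0.52 and -0.46 in Sucnr1-/- mice and 0.45, -0.26, 0.09 and -0.29 in WT mice. The same measure over the 9 adhesion genes was 0.07, -0.67, -0.55 and -0.50 in Sucnr1-/- mice and 0.44, -0.17, -0.04 and -0.24 in WT mice. In both, mouse 1 was the highest of its group and the other 3 Sucnr1-/- mice were below all WT mice.

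Of 20 macrophage markers 19 had a lower mean (median -0.32), and the list's level was -0.49 to -0.28 in Sucnr1-/- mice and -0.23 to 0.25 in WT mice, without overlap. Adgre1, the usual macrophage marker of adipose tissue, had 9.87, 9.59, 9.76 and 9.94 in Sucnr1-/- mice, against 10.30, 10.10, 10.70 and 10.07 in WT mice, a difference of -0.50 (SE 0.15, adjusted p = 0.712 in limma). All 11 B cell markers were lower on average (median -0.79), with list levels from -1.15 to -0.24 in Sucnr1-/- mice and from -0.69 to 1.07 in WT mice, and 12 of 14 T and NK cell markers were (median -0.28). Monocyte and neutrophil markers split 6 and 6, with a level of 1.35 in Sucnr1-/- mouse 1, -0.82 to -0.36 in the other Sucnr1-/- mice and -0.70 to 0.98 in WT mice.

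Mast cell and eosinophil markers were lower on average in 7 of 11 cases (median -0.08), with 4 genes whose groups did not overlap (1.87% of all genes in that direction) and list levels of -0.35 to -0.10 in Sucnr1-/- mice and -0.09 to 0.13 in WT mice. The median pools unlike parts. The mast cell protease genes Cpa3 (-0.74), Tpsb2 (-0.73), Mcpt4 (-0.64) and Cma1 (-0.36) were lower, each with an unadjusted limma p below 0.05. Ms4a2, Kit and Il5ra also had lower means, and Siglecf, Epx, Prg2 and Ccr3 higher ones. Dendritic cell markers were lower in 8 of 10 cases (median -0.19), platelet markers in 4 of 5 (-0.10), lymphatic and lymph node stroma markers in 8 of 9 (-0.15) and mesothelial markers in 10 of 11 (-0.19). Markers of stromal progenitors (5 of 11 lower, median 0.01), smooth muscle and pericytes (5 of 10, 0.01), epididymis and testis (3 of 9, 0.08) and skeletal muscle (3 of 8, 0.12) were not lower on balance.

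Endothelial markers, of a cell type that can carry Vcam1 and Icam1, split 8 and 8 (median 0.01), with list levels of -0.07 to 0.08 in Sucnr1-/- mice and -0.19 to 0.31 in WT mice. The adipocyte marker Adipoq lay between 13.17 and 13.35 in all mice, and 11 of 15 adipocyte markers had a higher mean (median 0.05). Immediate early genes, which handling of tissue can induce, had a lower mean in 13 of 15 cases, with levels of 0.34, -0.53, -0.32 and -0.61 in Sucnr1-/- mice and 0.64, -0.20, -0.40 and -0.04 in WT mice. The part of these cell type and handling markers in the differences of the 9 genes was not tested beyond the values relative to markers given next.

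**Figure D3:**
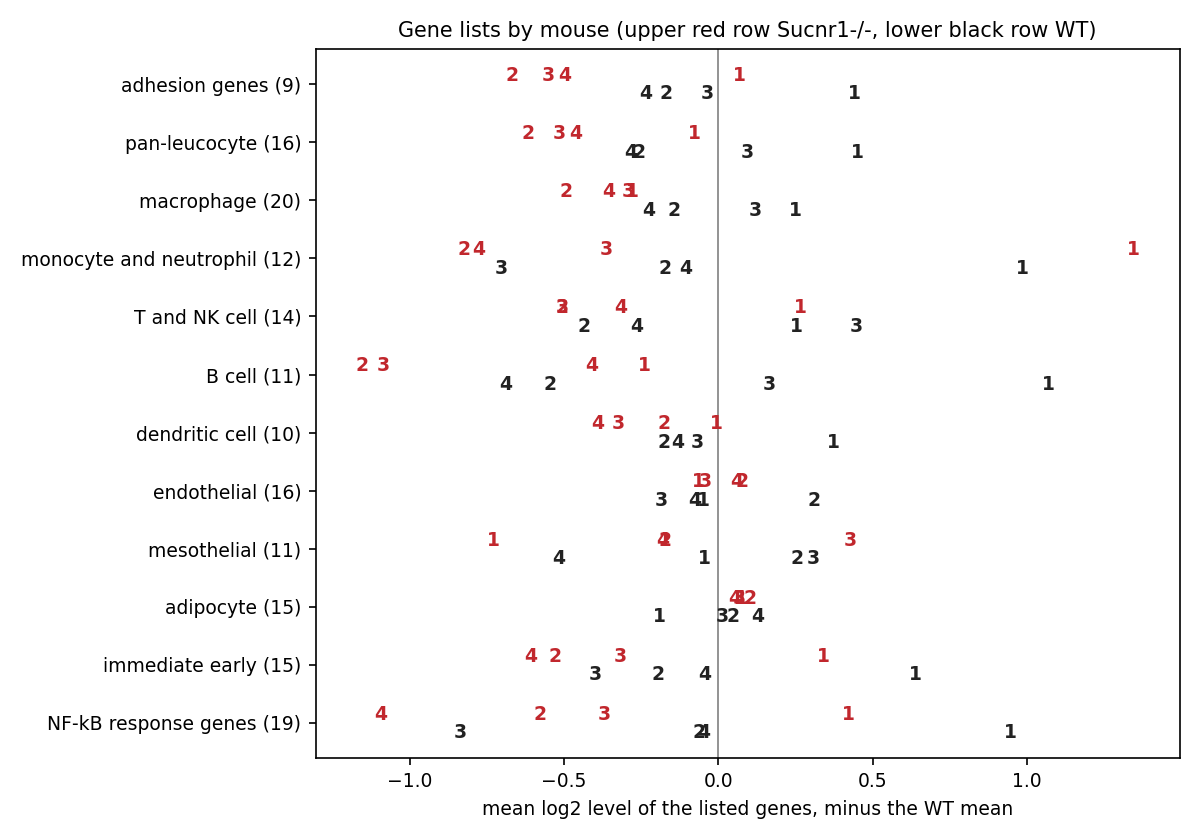
Mean log2 level of the 9 adhesion genes and of marker lists in each mouse, set against the WT mean of the list, with the number of genes in parentheses. Digits are replicate numbers, in the upper red rows for Sucnr1-/- and the lower black rows for WT mice. Mouse 1 is the highest of its group in the adhesion genes and in all leucocyte lists shown but that of T and NK cells. In that list WT mouse 3 is the highest WT mouse. Mouse 1 is also the highest of its group in the immediate early and NF-κB lists.

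Set against the mean of the 16 pan-leucocyte markers of the same mouse, the differences of the 7 leucocyte genes were smaller in size. The pan-leucocyte level itself differed by -0.42 between the groups, so subtracting it moved every difference up by that amount, whatever the gene. The smaller size is thus arithmetic, and its cause was not tested. Itgb2 kept the largest relative difference, -0.22, with relative log2 levels of 0.66, 0.38, 0.51 and 0.77 in Sucnr1-/- mice, against 0.58, 0.88, 0.83 and 0.90 in WT mice. The groups overlapped through WT mouse 1, and the exact permutation p was 0.114. Itgam had -0.21 (exact permutation p = 0.371), with wide spreads in both groups and a difference of -0.35 without Sucnr1-/- mouse 1 and -0.10 without Sucnr1-/- mouse 2. For Itgal (-0.05), Itga4 (-0.01), Fermt3 (0.00) and Selplg (0.01) the relative difference was close to 0, and Itgb7 had 0.14 (exact permutation p = 0.171). Fermt3, whose own groups did not overlap, had relative levels of -1.17, -0.95, -1.08 and -0.96 in Sucnr1-/- mice, against -1.13, -0.95, -1.20 and -0.89 in WT mice, which were intermixed.

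Against the mean of 16 endothelial markers, Icam1 (-0.22, exact permutation p = 0.686) and Vcam1 (-0.23, exact permutation p = 0.257) had nearly the same differences as before. That of Vcam1 was -0.12 without WT mouse 1 and -0.37 without WT mouse 2. The endothelial level itself differed by only 0.0067 between the groups, so subtracting it could change these 4-against-4 differences very little. Across the mice Vcam1 followed the pan-leucocyte level (Pearson's r = 0.93) and not the endothelial level. Neither Icam1 nor Vcam1 was set against pan-leucocyte markers. The p-values of these 9 relative differences are not adjusted, and none was below 0.05. The absolute and the relative difference of a gene were not tested against each other.

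**Figure D4:**
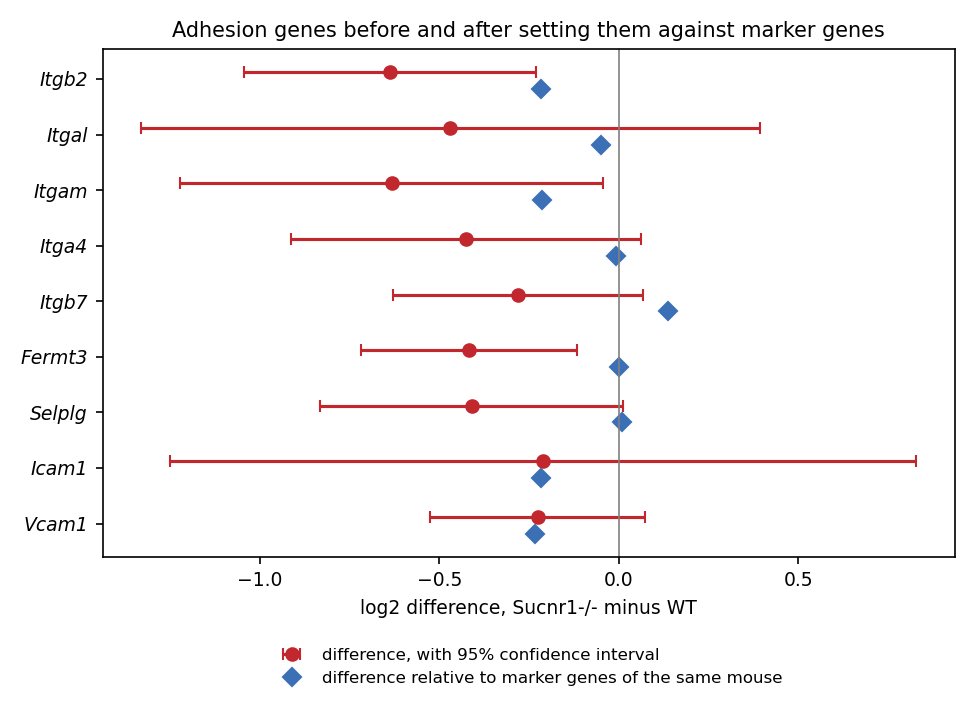
Log2 difference (Sucnr1-/- minus WT, n = 4 each) of the 9 adhesion genes with its 95% confidence interval (red), and the difference of the same gene relative to marker genes of the same mouse (blue), which are pan-leucocyte markers for the first 7 genes and endothelial markers for Icam1 and Vcam1. The intervals of Itgb2, Itgam and Fermt3 exclude 0, and the relative difference of Fermt3 is 0.00 where that of Itgb2 is -0.22.

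Ratios of chains that form 1 receptor were computed after the values had been seen. Itgam over Itgb2, the 2 chains of Mac-1, differed by 0.00 on the log2 scale (exact permutation p = 1.0), Itgal over Itgb2 by 0.17 (p = 0.571, exact) and Itgax over Itgb2 by 0.15 (p = 0.486, exact). Itga4 over Itgb7 differed by -0.14 (p = 0.600, exact) and Itga4 over Itgb1 by -0.32 (p = 0.229, exact). None of the 5 ratios separated the groups. Within Sucnr1-/- mice the ratio of Itgal to Itgb2 was highest in mouse 1, at -1.97, where the other 3 lay between -3.18 and -2.70 and the WT mice between -3.09 and -2.37.

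Across the 8 mice, the 28 pairs among the 8 genes other than Icam1 had Pearson correlations of 0.59 to 0.97, and the 8 pairs with Icam1 had 0.02 to 0.68. After the group means were removed these ranges were 0.35 to 0.95 and -0.09 to 0.71. The genes share tissue pieces and arrays, so these are descriptions with no test. Over 207 relations between the 9 genes and the 23 lists, Itgb2 followed the pan-leucocyte level with Pearson's r = 0.91 and Spearman's ρ = 0.93 (exact permutation p = 0.00191 and 0.00223, adjusted 0.0213 and 0.0308). It had r = 0.89 without WT mice 1 and 3, whose list levels lay farthest from the median, and 0.86 after the group means were removed. The relations named here are a selection of the 207. Their permutations moved mice across the groups, so a group difference shared by gene and list enters these p-values. Genes and lists also share tissue pieces and arrays. Itgb7 followed the pan-leucocyte level more closely, with r = 0.97 and ρ = 1.00 (exact permutation p = 2.48e-05 and 4.96e-05, adjusted 0.00513 and 0.0103). After the group means were removed its r was 0.97.

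Icam1 followed the NF-κB response genes with r = 0.95 and ρ = 0.86 (exact permutation p = 0.000546 and 0.0107, adjusted 0.0113 and 0.0584). Its r was 0.86 without Sucnr1-/- mouse 4 and WT mouse 1 and 0.97 after the group means were removed. With the pan-leucocyte level Icam1 had r = 0.54 and ρ = 0.40 (exact permutation p = 0.163 and 0.327, adjusted 0.270 and 0.431). Itgal followed the outside-in signalling list with r = 0.93 and ρ = 0.98 (exact permutation p = 4.96e-05 and 0.000397, adjusted 0.00513 and 0.0164), and r was 0.92 without Sucnr1-/- mouse 2 and WT mouse 1. It followed the pan-leucocyte level with r = 0.89 and ρ = 0.95 (exact permutation p = 0.00241 and 0.00114, adjusted 0.0236 and 0.0197), and r was 0.93 without WT mice 1 and 3. After the group means were removed, Itgal had r = 0.96 with the outside-in list and 0.91 with the pan-leucocyte level. With the monocyte and neutrophil level Itgal had r = 0.87 and ρ = 0.81 (exact permutation p = 0.0102 and 0.0218, adjusted 0.0513 and 0.0884), but that r was 0.30 without mouse 1 of each group, so this relation rested on those mice.

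**Figure D5:**
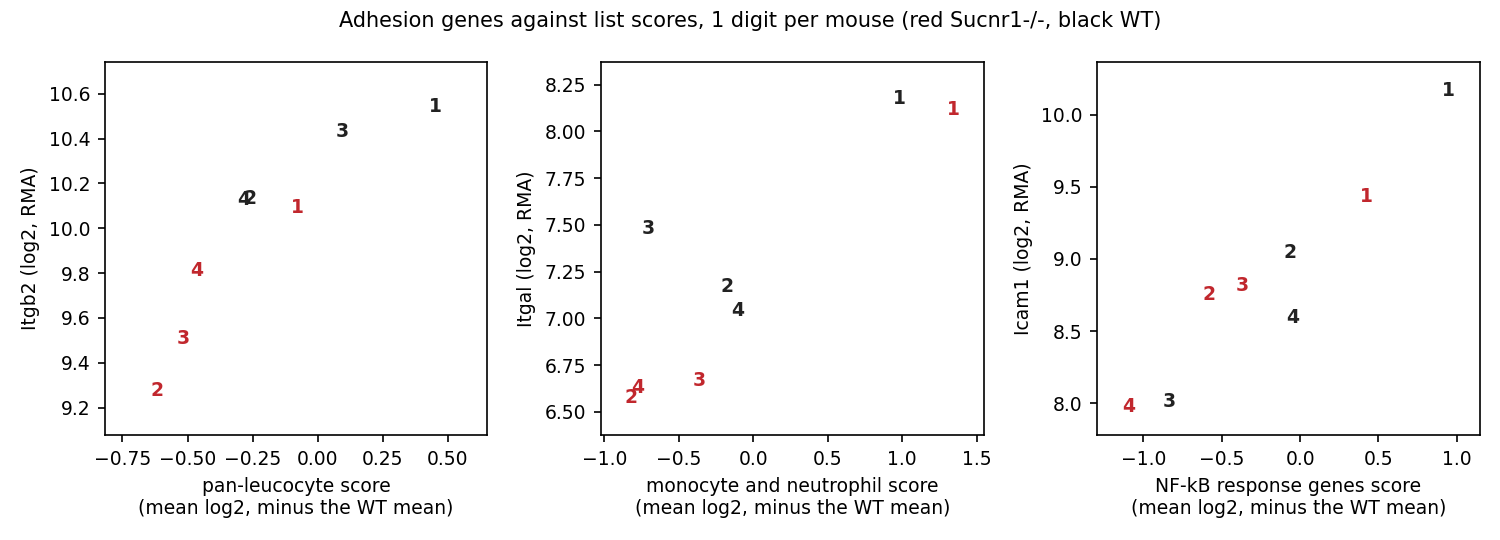
Itgb2 against the pan-leucocyte level, Itgal against the monocyte and neutrophil level, and Icam1 against the level of NF-κB response genes, as log2 (RMA) values on the vertical axes and mean log2 levels minus the WT mean on the horizontal axes. Each digit is a mouse, red for Sucnr1-/- and black for WT. In the middle panel mouse 1 of each group lies apart from the other 6 mice.

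The genes with the patterns most like those of 3 members were listed by Pearson correlation over the 8 mice, with predicted genes, olfactory and vomeronasal genes and antigen receptor segments left out. For Itgb2 they were Nr4a1, Arhgap4, Nfam1, Plcb2 and Ssh1, with r between 0.957 and 0.975. For Icam1 they were Utp25, Agfg1, Dph2, Cd209c and Zfp719, with r between 0.983 and 0.996. For Vcam1 they were Lcp1, Lax1, Gpr132, Plagl2 and Rhog, with r between 0.974 and 0.990. Nr4a1, the closest to Itgb2, is one of the immediate early genes listed above and differed by -0.74 (SE 0.25). Lcp1 is one of the pan-leucocyte markers, and with that list's level Vcam1 had r = 0.93 and ρ = 0.83 (exact permutation p = 0.00141 and 0.0154, adjusted 0.0209 and 0.0758). With the endothelial level it had r = -0.25 and ρ = -0.36 (exact permutation p = 0.546 and 0.389, adjusted 0.654 and 0.491). Without WT mice 1 and 3 the first r was 0.76, and without WT mice 2 and 3 the second was -0.41. After the group means were removed the first was 0.90.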

How the data were processed

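Whole epididymal fat from each mouse was hybridised to an Affymetrix Mouse Gene 1.1 ST array. The deposited values are log2 intensities that the authors obtained by robust multi-array averaging (RMA), which corrects background, normalises by quantiles and sums probes into 35556 probe sets; they are relative levels, so levels of different genes were not ranked. Probe sets with 1 gene symbol (21218) were kept; 1881 with several symbols and 12457 without a name were left out. Replicates are separate mice by the labels. Arrays carry no read depth; their number (4 and 4) limits the precision.

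Groups were compared with limma 3.58.1 in R 4.3.3 (lmFit, eBayes, Benjamini-Hochberg over 18820 genes), tested on simulated data first, and with exact two-sided permutation tests over 70 splits in Python 3.11.15 with scipy 1.17.1. Figures were drawn with matplotlib 3.10.9. The 9 genes, the lists, the markers and the tests were chosen with earlier results of these data known. The genes named are all 9, Sucnr1, their partner chains and ligands, of each pathway list those among the 4 of smallest p, defining markers, the mast cell and eosinophil markers, and the 5 genes most alike to 3 members. The chain ratios and the single mast cell and eosinophil genes were added after the values were seen. A total of 18 alternative settings were tried, including other normalisations, a filter on dim genes, array weights, the methods' t-test, the replicate number as a block and leaving out each mouse. Results columns of the study were not used, and all 8 array columns were.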

Additional observations from a re-analysis of the deposited data

Results flagged for a closer look

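In 114 sets of 4 mice, the gap of the highest or lowest mouse to its nearest neighbour was compared with Dixon's 95% critical value for 4 samples, as a share of the range. Chance exceeds it in about 1 set in 20, and 7 sets did. Itgal was high in Sucnr1-/- mouse 1, at 8.12 where the other Sucnr1-/- mice had 6.57 to 6.67, and its level relative to pan-leucocyte markers was high in the same mouse, at -1.32 where the others had -2.42 to -2.32. Itga4 relative to pan-leucocyte markers was high in Sucnr1-/- mouse 4, at -0.81 where the others had -1.14 to -1.11. Tln1 was high in the same mouse, at 10.74 where the others had 10.52 to 10.55. WT mouse 1 was high in Nectin2 (7.97, the others 7.58 to 7.63), in Vav3 (8.56, the others 8.30 to 8.33) and in Cd40 (7.77, the others 7.05 to 7.09).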

How the results depend on the processing

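No gene passed the adjusted threshold in any of the 18 alternatives, and the median difference of the 9 genes kept its sign in all of them (-0.52 to -0.30 when 1 mouse was left out). The number of the 9 lower at an unadjusted limma p below 0.05 was 3; it was 2 to 7 when 1 mouse was left out (7 without Sucnr1-/- mouse 1) and 2 with the methods' t-test. With replicate number as a block it was 8, all but Icam1 (5.82% of all genes). The shares of all genes for the t-test and for most single mice left out are not given, so those counts are descriptions only. Same-numbered mice deviated together with r = 0.45, 0.14, 0.11 and 0.01, so the numbers were not taken to pair the mice, and the block left 0 genes past the adjusted threshold (1905 unadjusted).

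The split of all genes at an unadjusted p below 0.05, 632 lower and 652 higher, became 979 and 355 when arrays were centred on the median of all probe sets, 330 and 1352 when centred on the median of the genes used (chosen after seeing the data), and 535 and 369 without the dimmest 40% of genes. The 9 genes kept lower means under these settings.

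Icam1 changed sign with array weights (0.0285) and ranged from -0.53 to 0.19 when 1 mouse was left out. The median of the other integrin chains was -0.14 without dim genes, -0.13 and -0.0622 with the centrings, and -0.16 to -0.0691 when 1 mouse was left out. That of the endothelial and junctional ligands was -0.12 to 0.0052 when 1 mouse was left out, and that of inside-out activation turned to 0.0034 with centring on the genes used. Relative differences near 0 changed sign: with the median of the markers Itgal had 0.0732 and Itga4 0.12; with Ptprc alone as denominator Fermt3 had -0.0443 and Selplg -0.0369. When 1 mouse was left out they ranged from -0.31 to 0.0585 for Itgal, -0.0919 to 0.12 for Itga4, -0.0513 to 0.0533 for Fermt3, -0.0485 to 0.0796 for Selplg, -0.47 to 0.20 for Icam1, -0.35 to -0.10 for Itgam and -0.37 to -0.12 for Vcam1. The cause of these changes was not tested.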
